A study of Arabidopsis thaliana with 72 samples.

Results

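The 10 genes described here encode the core enzymes of jasmonate synthesis in Arabidopsis thaliana and were taken by name and locus from the 27206 loci of a read count table. All 10 were among the 18693 loci with enough reads to be tested. They are the lipoxygenases LOX2 (AT3G45140), LOX3 (AT1G17420) and LOX4 (AT1G72520), the allene oxide synthase AOS (AT5G42650), the allene oxide cyclases AOC1 (AT3G25760), AOC2 (AT3G25770) and AOC3 (AT3G25780), the oxophytodienoate reductase OPR3 (AT2G06050), the CoA ligase OPCL1 (AT1G20510) and the acyl-CoA oxidase ACX1 (AT4G16760). The rule that picks them uses their names only, though the set was drawn up with earlier results of these data known.

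Jasmonates are lipid hormones of wounding, insect and pathogen defence, and flower development. In the chloroplast, a lipoxygenase adds oxygen to linolenic acid, AOS turns the product into an unstable allene oxide, and an AOC closes the ring to give oxophytodienoic acid. In the peroxisome, OPR3 reduces that intermediate, OPCL1 attaches coenzyme A, and ACX1 opens the rounds of beta-oxidation that shorten the side chain to jasmonic acid. Many genes of the pathway are known to be induced by jasmonate itself, through the receptor COI1 and the MYC transcription factors.

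RNA-seq was run on whole seedlings of phr1 phl1, a double mutant in PHR1 and PHL1, MYB regulators of the phosphate starvation response, and of the wild type Col-0. Seedlings germinated for 7 days with 1 mM phosphate (Pi) and then stayed for 12 days on about 5 µM Pi (low Pi) or on 1 mM Pi (high Pi), with 10 µM methyl jasmonate (MeJA), with 1 µM flg22, a flagellin peptide that triggers immunity, or untreated. All groups shared 1% sucrose and days of 9 h light and 15 h dark. The 12 groups hold 6 libraries each, 3 from experiment A and 3 from experiment B, except phr1 phl1 high Pi untreated, for which 5 were used. The labels do not say that libraries of an experiment were grown separately, so p-values measure only how far these samples spread, which may in part be technical.

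The 71 libraries used held 692426 to 6883818 counted reads, with a median of 3789735, and the shallowest group was Col-0 high Pi MeJA with a median of 1749954.5. In the mutant libraries PHR1 lay between 12.9 and 44.4 CPM (reads per 1000000 counted), against 49.0 to 74.0 CPM in Col-0, and PHL1 between 31.0 and 127 CPM, against 6.59 to 20.3 CPM in Col-0. One library with the label phr1 phl1 high Pi untreated, B1, had 68.6 CPM of PHR1 and 20.3 CPM of PHL1, both inside the Col-0 ranges. Its LOX2 level was 2881 CPM, against 71.6 to 364 CPM in the other 5 libraries of its label, and it was left out. With it included under its label, the count of MeJA-induced members stayed at 10 of 10 in phr1 phl1 at high Pi, with LOX2 up 2.67 instead of 4.55 and AOC2 up 2.74 instead of 5.90 on the log2 scale. The 10 green tissue markers were read in all groups, with summed levels of 22190 to 56390 CPM, and the 8 root markers tested, of 9 listed, with sums of 73.6 to 286 CPM. In whole seedlings, fewer cells of a type and less RNA per cell cannot be told apart.

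The 250 bases before the annotated start are shown for 5 members whose window holds a searched motif, because these genes had unlike responses to MeJA and Pi, and then for AOC1 and AOC2, the neighbouring genes with the most alike windows. Sequences and coordinates are from the RefSeq TAIR10.1 annotation, and all windows read 5′ to 3′ on the gene's strand. Capitals mark CACGTG, the G-box bound by MYC factors, CACATG on either strand, a related MYC element, or GNATATNC, the P1BS element bound by PHR1.
LOX2, chr3:16524995-16525244, plus strand: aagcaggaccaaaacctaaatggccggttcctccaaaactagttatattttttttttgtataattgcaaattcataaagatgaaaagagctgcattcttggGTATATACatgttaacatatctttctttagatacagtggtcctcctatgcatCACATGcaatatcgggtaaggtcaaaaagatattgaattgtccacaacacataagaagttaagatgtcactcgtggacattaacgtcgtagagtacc
LOX3, chr1:5977073-5977322, plus strand: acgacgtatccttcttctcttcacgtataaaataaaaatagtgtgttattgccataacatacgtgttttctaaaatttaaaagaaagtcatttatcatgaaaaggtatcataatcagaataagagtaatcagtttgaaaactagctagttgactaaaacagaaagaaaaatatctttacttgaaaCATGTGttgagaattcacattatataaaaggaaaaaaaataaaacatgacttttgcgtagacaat
LOX4, chr1:27308263-27308512, plus strand: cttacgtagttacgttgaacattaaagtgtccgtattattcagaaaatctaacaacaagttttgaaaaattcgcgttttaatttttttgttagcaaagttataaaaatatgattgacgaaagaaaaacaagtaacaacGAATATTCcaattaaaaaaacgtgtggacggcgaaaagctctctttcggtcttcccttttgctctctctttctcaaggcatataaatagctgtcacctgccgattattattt
AOS, chr5:17099596-17099845, minus strand: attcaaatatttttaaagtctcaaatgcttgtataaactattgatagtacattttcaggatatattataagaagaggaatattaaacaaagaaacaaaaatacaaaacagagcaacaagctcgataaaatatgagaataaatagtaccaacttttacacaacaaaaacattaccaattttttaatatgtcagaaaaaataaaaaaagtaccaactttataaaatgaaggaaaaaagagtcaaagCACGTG
ACX1, chr4:9428896-9429145, minus strand: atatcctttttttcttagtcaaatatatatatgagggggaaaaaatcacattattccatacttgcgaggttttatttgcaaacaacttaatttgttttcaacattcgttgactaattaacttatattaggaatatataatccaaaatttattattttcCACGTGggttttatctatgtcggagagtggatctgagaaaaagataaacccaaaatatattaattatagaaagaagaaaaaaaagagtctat
In the windows of AOC1 and AOC2 the capitals mark instead their longest shared run.
AOC1, chr3:9403529-9403778, plus strand: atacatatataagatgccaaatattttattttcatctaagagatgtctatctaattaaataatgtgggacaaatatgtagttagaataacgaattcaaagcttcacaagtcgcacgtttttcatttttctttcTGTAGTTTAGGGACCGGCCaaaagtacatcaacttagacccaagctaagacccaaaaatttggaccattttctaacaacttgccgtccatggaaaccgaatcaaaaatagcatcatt
AOC2, chr3:9406419-9406668, plus strand: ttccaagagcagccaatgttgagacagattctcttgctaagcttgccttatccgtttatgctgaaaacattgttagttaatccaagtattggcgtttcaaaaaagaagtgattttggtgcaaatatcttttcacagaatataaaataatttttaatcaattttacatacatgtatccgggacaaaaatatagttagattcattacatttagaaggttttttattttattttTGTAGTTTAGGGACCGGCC

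The G-box was found in 2 of 10 windows, beginning 6 bases before the start in AOS and 92 in ACX1, against 6.49% of the windows of 27443 protein-coding genes. CACATG was found in 2 of 10, 97 bases before the start in LOX2 and 65 in LOX3, against 11.1% of all windows. P1BS was found in 2 of 10, 149 bases before the start in LOX2 and 112 in LOX4, against 5.46% of all windows. The motifs do not overlap each other in these windows, and none was found in those of AOC1, AOC2, AOC3, OPR3 and OPCL1, which says only that these letters are not in 250 bases. AOC1 and AOC2 shared a run of 19 bases, TGTAGTTTAGGGACCGGCC, while the longest run shared by any of the other 44 pairs of members was 11 bases. The run ends at the base before the annotated start in AOC2 and 99 bases before it in AOC1. The OPCL1 window lies outside the annotated OPCL1 gene and overlaps an exon of AT1G20515. Whether that exon also reaches into OPCL1 was not examined. The libraries did not keep strand, so reads from any such overlap could not be assigned to 1 gene.

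All 10 genes rose with MeJA in both genotypes and at both Pi levels, in Col-0 at high Pi from 1.84-fold for ACX1 to 96.6-fold for AOC2. The share of all tested genes that changed was 13.2% in Col-0 at high Pi, 14.2% in Col-0 at low Pi, 18.2% in phr1 phl1 at high Pi and 17% in phr1 phl1 at low Pi (edgeR quasi-likelihood test, Benjamini-Hochberg adjusted p under 0.05). The median log2 change of the 10 genes was 2.64, 2.63, 2.33 and 2.49 in these 4 backgrounds, and the median of all tested genes was -0.03, -0.01, -0.02 and -0.02. At low Pi the treated and untreated libraries did not overlap for any of the 10 genes. At high Pi they overlapped for LOX3 in both genotypes and for no other member. The share of all tested genes without such overlap was not computed.

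**Figure D1:**
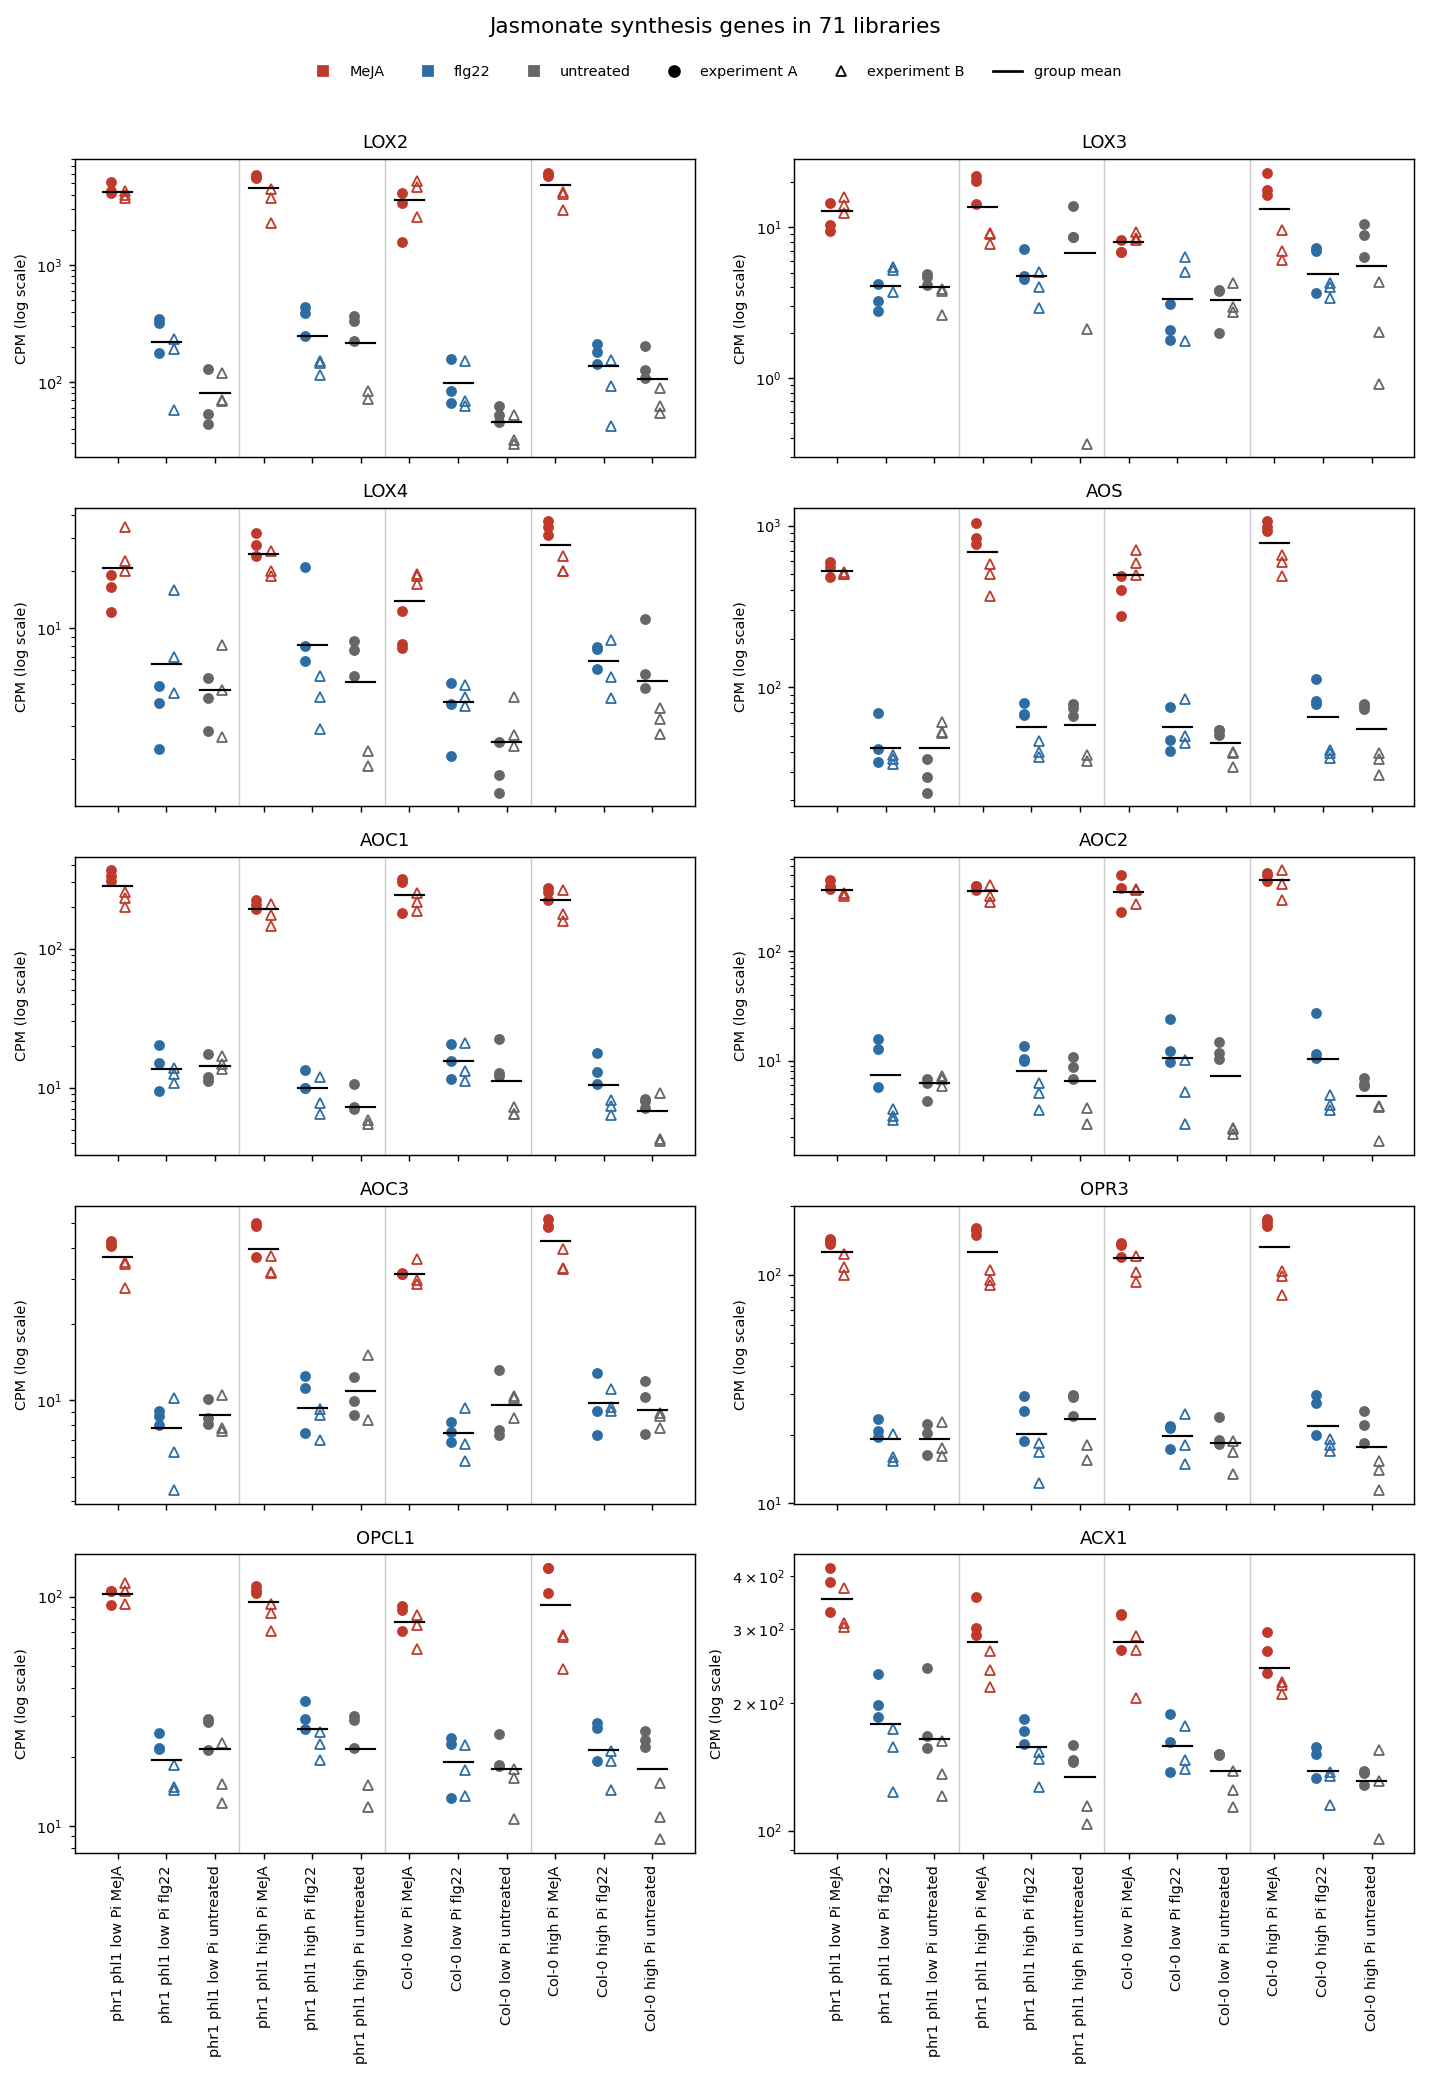
Levels of the 10 genes in 71 libraries, in CPM on log axes, with MeJA, flg22 and untreated groups along the x axis. Circles are libraries of experiment A, triangles those of experiment B and lines group means. LOX2 reaches 1569 to 6159 CPM in the MeJA groups and stays at or under 433 CPM in all others.

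LOX2, the chloroplast lipoxygenase of the bulk wound response in leaves, had 2942, 4970 and 6159 CPM (lowest, median and highest of 6) in MeJA-treated Col-0 at high Pi, against 53.9, 99.1 and 201 CPM in untreated Col-0. The treated libraries lay far above the untreated ones, with no overlap. The log2 change was 5.53 (SE 0.39, adjusted p = 1.19e-18) in Col-0 at high Pi and 6.39 (SE 0.41) in Col-0 at low Pi. In phr1 phl1 it was 4.55 (SE 0.40) at high Pi and 5.69 (SE 0.39) at low Pi. The 5 untreated phr1 phl1 libraries at high Pi held 364, 335 and 222 CPM in experiment A and 71.6 and 84.4 CPM in experiment B.

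LOX4 and LOX3, paralogs known for the wound response and for male fertility, changed less and were low throughout. LOX4 had 20.0, 27.8 and 36.9 CPM in MeJA-treated Col-0 at high Pi, against 2.74, 4.27 and 11.2 CPM in untreated Col-0, a log2 change of 2.39 (SE 0.36, adjusted p = 3.62e-07). Its change was 2.57, 2.17 and 2.20 in Col-0 at low Pi, phr1 phl1 at high Pi and phr1 phl1 at low Pi. LOX3 had 6.03, 13.0 and 23.0 CPM in treated Col-0 at high Pi, against 0.913, 5.36 and 10.5 CPM in untreated Col-0, so the groups overlapped. Its log2 change was 1.29 (SE 0.33, adjusted p = 0.00384) there and 1.69 (SE 0.32) in phr1 phl1 at low Pi. In phr1 phl1 at high Pi LOX3 rose by 1.01 (SE 0.30, adjusted p = 0.013). That call was lost without the libraries numbered A2 (adjusted p = 0.0565) or A3 (adjusted p = 0.0516), without B3 of the untreated mutant group at high Pi (adjusted p = 0.0504) and with no experiment term (adjusted p = 0.05). LOX3 counts were small, with 1 to 73 reads in the untreated mutant group at high Pi.

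AOS, which commits the lipoxygenase product to jasmonates, had 488, 791 and 1061 CPM in MeJA-treated Col-0 at high Pi, against 28.8, 56.2 and 78.6 CPM in untreated Col-0. Its log2 change was 3.84 (SE 0.27, adjusted p = 2.31e-19), and 3.52, 3.58 and 3.62 in the other 3 backgrounds. All treated libraries stood above all untreated ones.

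AOC2 had the largest relative change of the 10 genes in Col-0 at high Pi, in phr1 phl1 at high Pi and in phr1 phl1 at low Pi. It had 293, 470 and 551 CPM in treated Col-0 at high Pi, against 1.83, 4.87 and 6.93 CPM in untreated Col-0, a log2 change of 6.59 (SE 0.34, 96.6-fold, adjusted p = 2.93e-25). In Col-0 at low Pi, LOX2 changed more (6.39) than AOC2 (5.66, SE 0.32) in the model of both experiments. Within experiment B AOC2 changed more (7.16, LOX2 6.76), and within experiment A LOX2 did (5.82, AOC2 4.89). These rankings were not tested. AOC1 rose by 4.98 (SE 0.21) in Col-0 at high Pi, with 158, 239 and 273 CPM in treated libraries against 4.11, 7.62 and 9.12 CPM in untreated ones. AOC3 rose by 2.22 (SE 0.16), with 33.1, 43.7 and 51.8 CPM against 7.41, 8.81 and 12.0 CPM. The 3 neighbouring genes thus moved together in direction and apart in size.

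**Figure D2:**
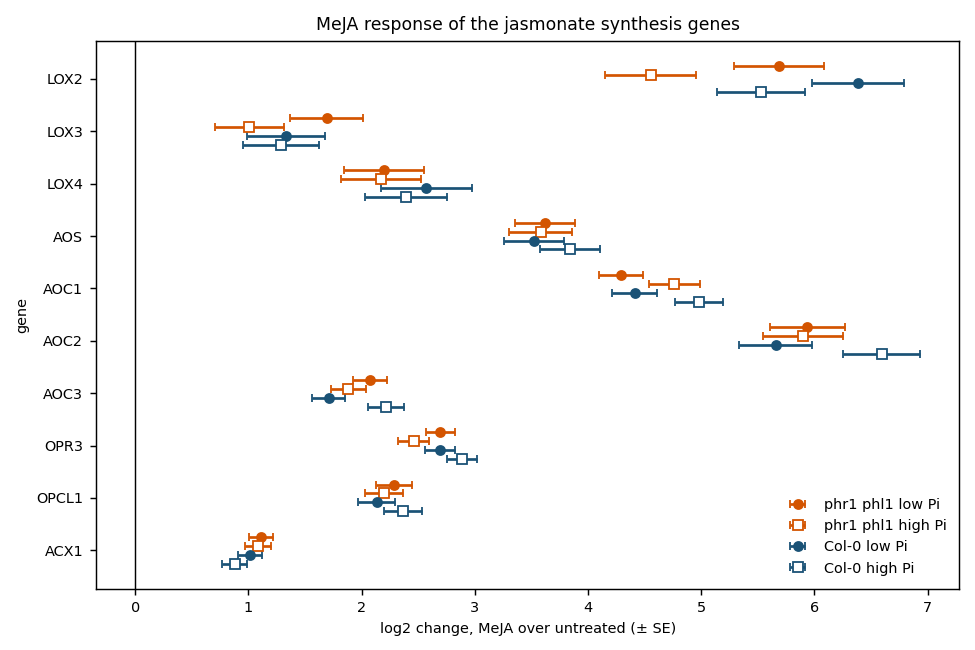
Log2 change of each gene with MeJA over untreated, in phr1 phl1 and Col-0 at low and high Pi. Bars are approximate standard errors derived from the test's F statistic. Every point lies right of 0, from 0.88 for ACX1 to 6.59 for AOC2, both in Col-0 at high Pi.

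The coding sequences of AOC1 and AOC2 are 89.9% identical, those of AOC1 and AOC3 81.5% and those of AOC2 and AOC3 80.8%, so their separate counts are uncertain where reads fit several copies. Of the 50-base exon windows, 24 of 1093 in AOC1, 1 of 1202 in AOC2 and 25 of 1562 in AOC3 occur exactly elsewhere in the genome. Summed over AOC1, AOC2 and AOC3, the log2 change with MeJA was 5.11 (SE 0.19) in Col-0 at high Pi, 4.50 in Col-0 at low Pi, 4.64 in phr1 phl1 at high Pi and 4.53 in phr1 phl1 at low Pi.

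The makeup of the AOC family differed with MeJA. AOC4 (AT1G13280), a cyclase outside the 10 genes, made up 12.1% of the family's level per kilobase of exon in the 24 MeJA libraries (8.69 to 18.3%), against 53.1% in the 47 others (36.8 to 67.7%). AOC2 made up 50.4% with MeJA (41.6 to 58.2%), against 12.7% without (4.51 to 35.8%). AOC1 made up 33.7% (27.1 to 41.2%) against 21.3% (10.12 to 30.8%), and AOC3 3.94% (2.56 to 5.41%) against 13.0% (7.46 to 20.3%). The ranges of AOC2, AOC3 and AOC4 did not overlap between the 2 sets of libraries. These shares restate the levels above and carry no test of their own.

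**Figure D3:**
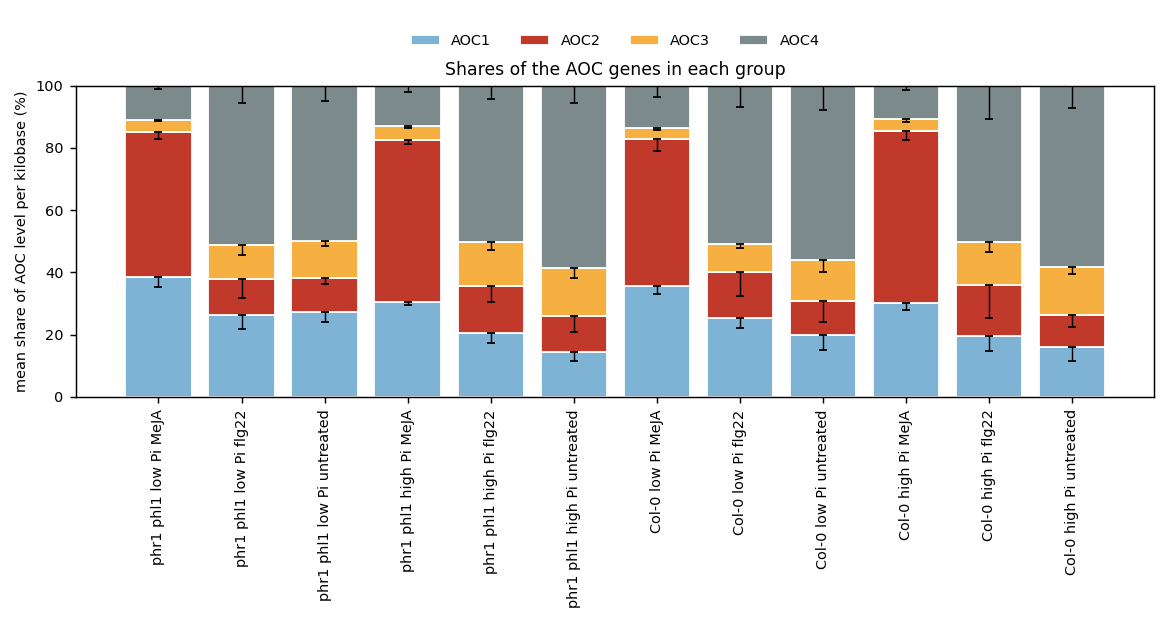
Mean share of AOC1, AOC2, AOC3 and AOC4 in the family's level per kilobase in each of 12 groups, stacked in percent, with 1 SD drawn downward from each boundary. AOC2 is the largest share in MeJA groups and AOC4 in the others.

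Among the chloroplast lipoxygenases LOX2, LOX3, LOX4 and LOX6, LOX2 made up 97.2% of the level per kilobase in MeJA libraries (94.8 to 98.0%), against 67.0% in the others (41.5 to 88.0%). LOX6, a paralog known from early wound signalling, made up 1.96% with MeJA and 26.9% without. LOX6 itself rose with MeJA by 0.85, 1.06, 1.18 and 1.1 in Col-0 at high Pi, Col-0 at low Pi, phr1 phl1 at high Pi and phr1 phl1 at low Pi.

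OPR3, the reductase that carries the main peroxisomal route, had 81.3, 134 and 175 CPM in MeJA-treated Col-0 at high Pi, against 11.4, 16.8 and 25.2 CPM in untreated Col-0. Its log2 change was 2.89 (SE 0.13, adjusted p = 2.04e-29), and 2.69, 2.46 and 2.70 in Col-0 at low Pi, phr1 phl1 at high Pi and phr1 phl1 at low Pi. Among treated Col-0 libraries at high Pi, those of experiment B held 81.3, 98.8 and 104 CPM and those of experiment A 175, 163 and 170 CPM. OPCL1 had 48.1, 85.7 and 133 CPM in treated Col-0 at high Pi, against 8.75, 18.7 and 25.9 CPM in untreated Col-0, a log2 change of 2.36 (SE 0.17). ACX1 had 211, 230 and 294 CPM in treated Col-0 at high Pi, against 95.4, 134 and 156 CPM in untreated Col-0. Its log2 change was 0.88 (SE 0.11, adjusted p = 8.58e-10), and 1.01, 1.09 and 1.11 in the other 3 backgrounds, the smallest of the 10 genes everywhere except phr1 phl1 at high Pi, where LOX3 changed by 1.01.

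Per kilobase of exon, the order of the genes differed between treated and untreated Col-0 at high Pi. With MeJA the mean level was 1483 CPM per kilobase for LOX2, 386 for AOS, 349 for AOC2, 189 for AOC1, 93.3 for ACX1, 77.4 for OPR3, 34.4 for OPCL1, 25.5 for AOC3, 9.13 for LOX4 and 4.30 for LOX3. Untreated, ACX1 was highest with 50.4 CPM per kilobase, followed by LOX2 with 32.9, AOS with 27.3 and OPR3 with 10.4. The other 6 lay between 1.72 for LOX4 and 6.65 for OPCL1. Ranked by mean CPM over the 12 groups, the 4 MeJA groups stood highest for each of the 10 genes, for example with means of 118 to 132 CPM for OPR3 and 14.0 to 27.8 CPM for LOX4. The library ranges of MeJA groups next to each other in that order overlapped, except for LOX3 between phr1 phl1 low Pi (mean 12.8 CPM) and Col-0 low Pi (mean 7.99 CPM).

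Genes around the pathway did not all follow. AOC4 rose in all 4 backgrounds, by 1.64 in Col-0 at high Pi. Of 6 tested genes of substrate supply, of 8 listed, none rose and 1 fell in each background, the desaturase FAD7 (-0.48 in Col-0 at high Pi), the lipase PLIP3 (-0.70 in Col-0 at low Pi) and the desaturase FAD3 in phr1 phl1 (-0.33 at high Pi and -0.37 at low Pi). Neither transporter of intermediates, JASSY or PXA1, passed the threshold. Of 9 other enzymes of peroxisomal beta-oxidation, 0, 1, 1 and 2 rose in Col-0 at high Pi, Col-0 at low Pi, phr1 phl1 at high Pi and phr1 phl1 at low Pi. They were the thiolase KAT5 (1.1), the multifunctional protein MFP2 (0.49 and 0.46) and its relative AIM1 (0.43). Downstream, the methyltransferase JMT rose by 1.25, 3.68, 1.07 and 2.62 in the same order, and JAR1, which joins jasmonate to isoleucine, did not pass in any.

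Genes of other oxylipin branches moved too. RNA of HPL1, named for hydroperoxide lyase, rose by 4.09 (SE 0.30) in Col-0 at high Pi. Its means were 83.1 CPM with MeJA and 4.79 CPM untreated. Whether an active enzyme was made was not measured. The cytosolic lipoxygenase LOX1 rose by 2.50 (309 CPM with MeJA and 54.7 CPM untreated) and LOX5 by 0.75 there, and both rose in all 4 backgrounds. OPR1 fell in 3 backgrounds, by 0.65 to 0.66, and OPR2 in phr1 phl1 at high Pi by 0.51, so these relatives of OPR3 went the other way. The response markers VSP1, VSP2 and JAZ10 rose in all 4 backgrounds, and VSP2 averaged 325 CPM with MeJA and 0.700 CPM untreated in Col-0 at high Pi. Of 10 green tissue markers 5 fell with MeJA in each background. Their summed level was 30480 to 41610 CPM in treated and 39470 to 47470 CPM in untreated Col-0 at high Pi. The part of tissue makeup in the result was not tested.

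The MeJA response did not differ detectably between the backgrounds for any of the 10 genes. No member passed the test of low Pi minus high Pi in Col-0 (0.0107% of all tested genes passed) or in phr1 phl1 (0%). None passed for phr1 phl1 minus Col-0 at high Pi (0%) or at low Pi (0.016%). At an unadjusted p under 0.05 there were 3, 1, 2 and 0 members in this order, and DESeq2 called 0 in all 4. For LOX2 the response at low Pi minus that at high Pi was 0.86 (SE 0.46) in Col-0 and 1.13 (SE 0.47) in phr1 phl1, and for AOC2 in Col-0 it was -0.94 (SE 0.44), none of which passed. Nor was the MeJA change shown to differ between experiments B and A for any member by edgeR. Of all genes, 2.11% passed in Col-0 at high Pi and 0.0107% in Col-0 at low Pi. In phr1 phl1 0.952% passed at high Pi and 0.0802% at low Pi. Unadjusted, 0, 3, 5 and 3 members were under 0.05 in this order. For AOC2 in Col-0 at low Pi the difference was 2.27 (SE 0.49, adjusted p = 0.089). DESeq2 was not used for the tests between experiments.

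Low Pi without treatment moved LOX2 down and AOC1 up in both genotypes, in the model of both experiments. Within experiments A and B, LOX2 changed by -1.44 and -0.87 in Col-0 and by -2.03 and 0.15 in phr1 phl1. The latter 2 differed (adjusted p = 0.0209 by edgeR). AOC1 changed by 1.03 and 0.09 in Col-0 and by 0.67 and 1.42 in phr1 phl1. LOX2 fell in Col-0, with 45.4, 52.6, 62.3, 31.7, 52.5 and 29.6 CPM at low Pi, against 201, 109, 127, 62.5, 53.9 and 89.0 CPM at high Pi. The log2 change was -1.18 (SE 0.34, adjusted p = 0.0126). In Col-0 1 member rose and 1 fell of 10, a share near the 15.5% of all genes that changed. DESeq2 called 3 in Col-0, with LOX4 lower at low Pi as well (-1.13, adjusted p = 0.029). AOC1 rose there by 0.69 (adjusted p = 0.0242), with 6.42 to 22.5 CPM at low Pi and 4.11 to 9.12 CPM at high Pi, overlapping ranges. In the same comparison 6 of 8 root markers rose (median log2 change 0.83, summed level 154 to 286 CPM at low Pi and 97.9 to 154 CPM at high Pi), and of 10 green tissue markers 1 rose and 1 fell. Their part in these changes was not tested.

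In untreated phr1 phl1, 2 members rose and 1 fell of 10, with 12.3% of all genes changed. None of the 8 root markers passed there and 3 of 10 green tissue markers fell. AOC1 rose by 1.01 (adjusted p = 0.0021), with 11.1, 14.3 and 17.4 CPM at low Pi (lowest, median and highest of 6), against 10.6, 7.25, 7.06, 5.87 and 5.52 CPM at high Pi. All low Pi libraries lay above all high Pi libraries. LOX2 fell by 1.19 (adjusted p = 0.0174), with 44.1, 69.2 and 129 CPM at low Pi, and ACX1 rose by 0.32 (adjusted p = 0.0461), with overlapping ranges. With the left-out library included, the AOC1 change became -1.097 (adjusted p = 0.0902). ACX1 then lost its call too (adjusted p = 0.447), and falls passed in AOC2 (-3.13), AOC3 (-0.75) and OPR3 (-0.83). In experiment A alone, falls also passed in LOX3 (-1.13), AOS (-1.33) and OPR3 (-0.46). There AOC1 (adjusted p = 0.0612) and ACX1 (adjusted p = 0.0543) lost their calls. The LOX2 fall lost its call in Col-0 without the libraries numbered A1 (adjusted p = 0.147) or A2 (0.0547), and in phr1 phl1 without those numbered A1 (0.112), A2 (0.257) or A3 (0.104) or without A1 (0.0868) or A2 (0.0803) of the untreated mutant at high Pi alone. The AOC1 rise in Col-0 lost its call without those numbered A1 (0.0949), A2 (0.0887) or A3 (0.299), and the AOC1 rise in phr1 phl1 in none of the 11 leave-outs. The ACX1 rise lost its call in 9 of 11, keeping it without B3 or without A1 of the untreated mutant at high Pi. Summed with AOC2 and AOC3, the AOC change at low Pi did not pass (adjusted p = 0.102 in Col-0 and 0.288 in phr1 phl1).

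Under treatment, differences with Pi passed for 1 member or none per comparison. With MeJA, none passed in Col-0 (5.38% of all genes; 4 unadjusted, DESeq2 1), and in phr1 phl1 ACX1 rose by 0.35 (adjusted p = 0.0479; 3.02% of all genes). With flg22, AOC1 rose by 0.58 in Col-0 (adjusted p = 0.0493; 15% of all genes) and none passed in phr1 phl1 (10.3% of all genes; 2 unadjusted, DESeq2 0). ACX1 lost its call in 7 of 11 leave-outs, among them without the libraries numbered A2, A3, B1, B2 or B3. It was also lost without A2 (adjusted p = 0.0505) or A3 (0.0507) of the untreated mutant at high Pi, a group outside that comparison. AOC1 lost its call in 5 of 11, without A1, A2, B1, B2 or B3. The change with Pi did not differ detectably between phr1 phl1 and Col-0 without treatment for any member (0.519% of all genes, 0 unadjusted, DESeq2 0).

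The low Pi results differed between the experiments, which was looked at after the data were seen by fitting each experiment's change in 1 model. In experiment A without treatment, 2 members rose and 4 fell in Col-0 (32.9% of all genes) and 4 fell in phr1 phl1 (26.5%). In experiment B no member passed in Col-0 (0.605% of all genes, 0 unadjusted) or in phr1 phl1 (0.77%, 6 unadjusted). With MeJA, 6 fell in Col-0 in A (19.2%) and none passed in B (0.391%, 0 unadjusted). In phr1 phl1 with MeJA 1 rose and 2 fell in A (9.05%) and none passed in B (1.65%, 2 unadjusted). With flg22, 2 fell in Col-0 in A (25.1%) and none passed in B (2.72%, 3 unadjusted). In phr1 phl1 with flg22 2 fell in A (19.3%) and none passed in B (0.337%, 2 unadjusted). DESeq2 was not used for these.

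The difference between the experiments passed for 1 member in untreated Col-0 (15.3% of all genes), 4 in untreated phr1 phl1 (10.3%), 4 in Col-0 with MeJA (6.48%), 1 in phr1 phl1 with MeJA (2.76%), 1 in Col-0 with flg22 (7.76%) and 1 in phr1 phl1 with flg22 (3%). AOS in untreated phr1 phl1 is an example. In experiment B it had 52.6, 60.8 and 51.8 CPM at low Pi, against 37.8 and 34.7 CPM at high Pi. In experiment A it had 22.3, 27.7 and 36.0 CPM at low Pi, against 79.2, 66.1 and 73.9 CPM at high Pi. The log2 change was 0.61 in B and -1.36 in A, a difference of 1.96 (SE 0.32, adjusted p = 1.11e-05). LOX3 differed by 2.46 (SE 0.60, adjusted p = 0.00342) in the same seedlings, with 3.78, 2.63 and 3.90 CPM at low Pi and 0.367 and 2.103 CPM at high Pi in B. All 12 differences that passed were positive, and AOC1, AOC2, AOC3, OPR3 and ACX1 had none. At high Pi without treatment, LOX3 averaged 1.24 CPM in B and 10.4 CPM in A in phr1 phl1, and 2.43 CPM in B and 8.61 CPM in A in Col-0.

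**Figure D4:**
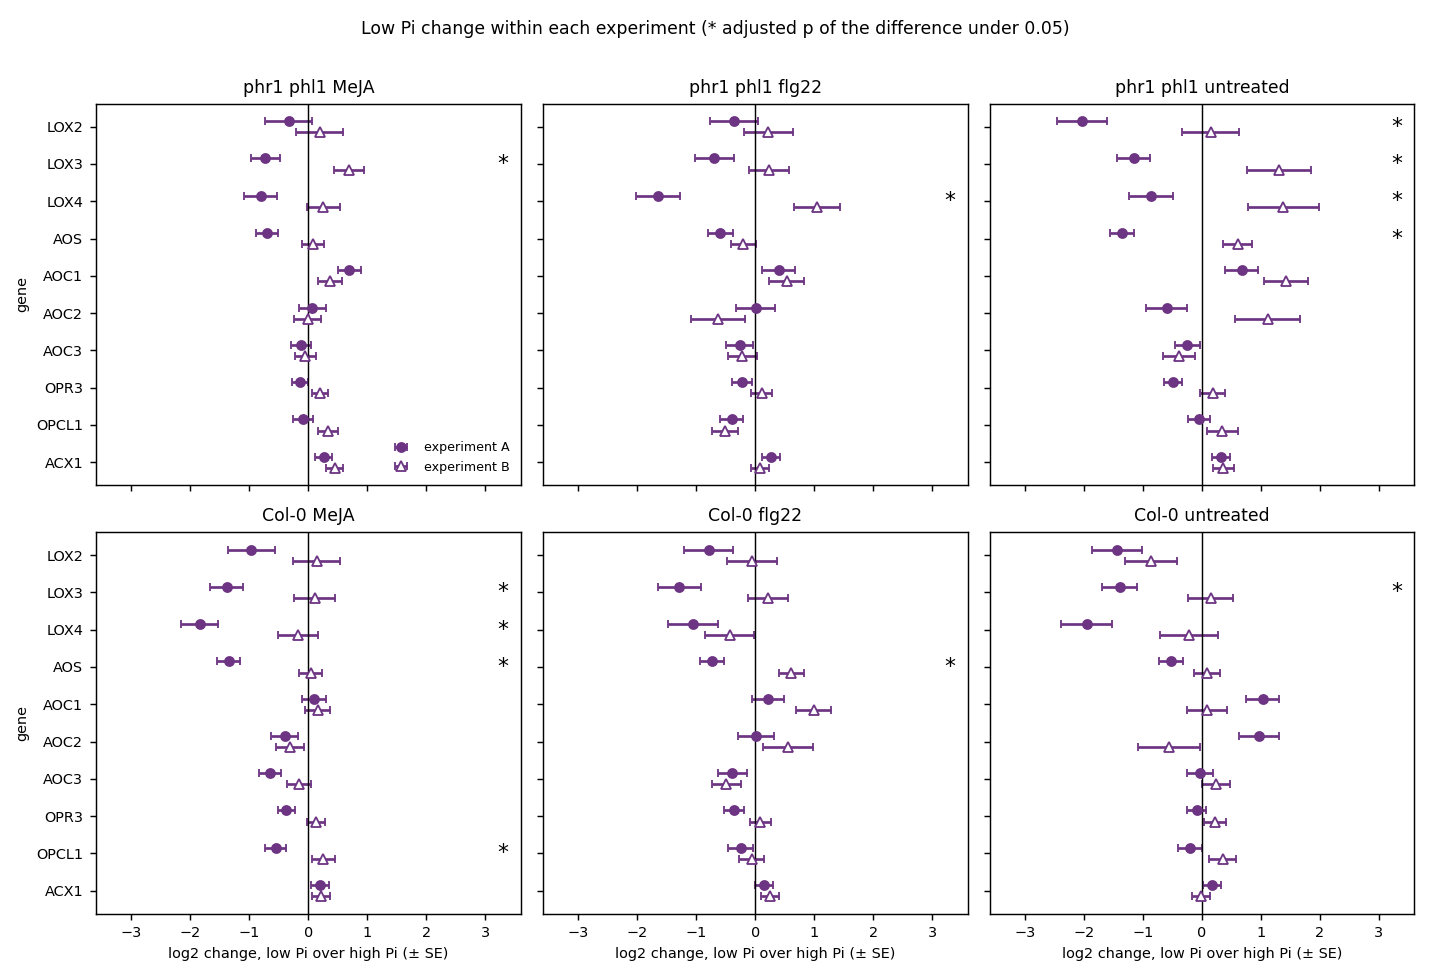
Log2 change of each gene at low Pi over high Pi within experiment A and experiment B, for 3 treatments and both genotypes. Bars are approximate standard errors derived from the test's F statistic. Asterisks mark the 12 differences between experiments that passed, with LOX3, LOX4 and AOS lower at low Pi in experiment A.

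With flg22, LOX2 rose at low Pi in both genotypes, and no other member passed in any background. LOX2 in low Pi Col-0 had 157, 66.3, 84.1, 62.9, 68.2 and 152 CPM with flg22, against 45.4, 52.6, 62.3, 31.7, 52.5 and 29.6 CPM untreated. The treated range began just above the untreated one, and LOX2 rose by 1.14 (SE 0.34, adjusted p = 0.0389; 4.45% of all genes). In low Pi phr1 phl1 it had 342, 319, 177, 233, 190 and 57.3 CPM with flg22, against 44.1, 69.2 and 129 CPM untreated (lowest, median and highest), and rose by 1.36 (SE 0.34, adjusted p = 0.0108; 3.38% of all genes). Those ranges overlapped through 1 treated library of experiment B with 57.3 CPM. At high Pi no member passed in Col-0 (0.979% of all genes; 3 unadjusted, DESeq2 0) or phr1 phl1 (4.62%; 2 unadjusted, DESeq2 0).

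The LOX2 call in Col-0 was lost in experiment A alone (adjusted p = 0.17), in experiment B alone (0.188) and in 8 of 19 alternatives that use both, among them without the libraries numbered A1 (adjusted p = 0.196), A2 (0.0706), B1 (0.0578), B2 (0.0546) or B3 (0.201). The call in phr1 phl1 was lost in experiment B alone (0.90, adjusted p = 0.543) and in 2 of the 19, without A2 (0.139) and with the left-out library included (0.111). With flg22 at low Pi 3 of 8 root markers fell in Col-0 and 1 rose in phr1 phl1, and no green tissue marker passed. The change in LOX2 with flg22 was not shown to differ between low and high Pi in Col-0 (0.77, SE 0.47, adjusted p = 0.826; no member passed, 1 unadjusted, DESeq2 0; 0.0107% of all genes). Nor was it between phr1 phl1 and Col-0 at low Pi (0.21, SE 0.47; no member passed, 0 unadjusted, DESeq2 0; 0.016% of all genes). Of the paralogs, LOX6 rose with flg22 in phr1 phl1 at high Pi (0.47, adjusted p = 0.0233).

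Between the genotypes 1 difference passed, in ACX1. Without treatment no member differed at high Pi (0.0642% of all genes; 2 unadjusted, DESeq2 0) or at low Pi (3.69%; 3 unadjusted, DESeq2 0). With MeJA none differed at high Pi (0.134%; 0 unadjusted, DESeq2 0), and at low Pi ACX1 was higher in phr1 phl1 by 0.34 (SE 0.11, adjusted p = 0.0407; 4.96% of all genes). With flg22 none differed at high Pi (0.177%; 1 unadjusted, DESeq2 0) or at low Pi (0.476%; 1 unadjusted, DESeq2 0). ACX1 with MeJA at low Pi had 303, 352 and 419 CPM in phr1 phl1, against 206, 278 and 325 CPM in Col-0, overlapping ranges. Its call was lost in all 11 leave-outs. Of these, 5 left out a library of the untreated mutant at high Pi, a group outside the ACX1 comparison. The change stayed at 0.33 in those (adjusted p = 0.0533 to 0.0571 by edgeR). In that comparison 7 of 10 green tissue markers were lower in phr1 phl1 (median log2 difference -0.46, summed level 22190 to 28530 CPM in phr1 phl1 and 28780 to 56390 CPM in Col-0) and none of 8 root markers differed. Their part in the ACX1 difference was not tested. LOX2 was 0.89 (SE 0.34) higher in untreated phr1 phl1 at high Pi and 1.09 (SE 0.33) higher with flg22 at low Pi, with adjusted p of 0.608 and 0.152.

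Across libraries the 10 genes rose and fell together only in part. Centred within each experiment, the median Pearson r over 45 pairs was 0.25 across the 47 libraries without MeJA (-0.20 to 0.62) and 0.47 across the 24 MeJA libraries (-0.19 to 0.86). The closest pair without MeJA was LOX3 and LOX4 (0.62), and with MeJA LOX2 and AOS (0.86). AOC3 and ACX1 were weakly negative in both (-0.17 and -0.19). The libraries share group and depth structure, so these values describe the set and carry no test.

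By the lower of those 2 coefficients, the genes most like ACX1 over all tested genes were the thiolase gene KAT2, listed in the annotation as PKT3 (0.86), and ERD1 (0.85). Those most like AOS were the expansin gene EXPA6 (0.81) and MIPS2 (0.80). LOX4 was nearest to SZF1 (0.78), LOX3 to AT3G17800 (0.75), AOC1 to MBD10 (0.74) and OPCL1 to LAP1 (0.73). LOX2 was nearest to the nitrilase gene NIT1 (0.72), AOC2 to the beta-glucosidase gene BGLU18 (0.64), OPR3 to DOF1 (0.60) and AOC3 to NIT3 (0.54).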

How the data were processed

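Whole seedlings of 12 groups were sequenced after poly(A) selection, without keeping strand, per the labels' protocols. The authors deposited raw read counts per locus, whole numbers with no normalization, for 27206 loci. Tools listed in the submitters' processing notes, without roles, are HTSeq 0.6.1p1, TopHat2 2.1.1, cutadapt 1.3 and CASAVA 1.8, on build TAIR10. The counting settings are not given in the sources used here, so reads shared by close copies may have been split or dropped. The table holds no coordinates; those printed are from the RefSeq TAIR10.1 annotation.

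The test was edgeR 4.0.16 in R 4.3.3 (filterByExpr with a minimum count of 10, TMM scaling, robust quasi-likelihood model with a term per group and 1 for the experiment) over 71 libraries, leaving 18693 loci. One library was left out because its PHR1, PHL1 and jasmonate marker levels go against its label. Each of 27 comparisons is a contrast of that model, with Benjamini-Hochberg adjustment over all loci tested and a threshold of 0.05. CPM are counts per 1000000 of TMM-corrected library size. Each SE is the size of the log2 change divided by the square root of its quasi-likelihood F statistic. It is approximate and not a fitted standard error. Precision follows depth: the shallowest library held 692426 reads. On simulated data for MeJA in Col-0 at high Pi, with 18452 genes run, the test found 64 of 64 genes changed 4-fold, 71.6% of those changed 2-fold and 53% of those changed 1.5-fold. Apart from these planted changes, each simulated gene had the same mean in all libraries, with no group or experiment effects. The rates may therefore not hold for the real data. No pair of libraries within a group agreed within sampling noise (chi-square per degree of freedom at least 1.73 in 175 pairs).

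The 10 genes, the other gene lists and the rule for named genes were chosen with earlier results of these data known. The text names all 10 genes, up to 4 genes per list past the threshold by size, and up to 2 genes per member most like it, likeness being the lower of 2 Pearson coefficients of log2 CPM (prior count 2), across libraries without and with MeJA. Alternatives were DESeq2 1.42.0, RLE scaling, no count filter, no experiment term, a replicate block, each experiment alone, the left-out library included, libraries under 1000000 reads left out, AOC1 to AOC3 summed, and each replicate left out. Replicates were left out by number across all groups, and the 5 libraries of the untreated mutant at high Pi also 1 at a time. These 11 leave-outs were run for every comparison, also those without that mutant group. The fit of each experiment's own change was added after seeing the data.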

Additional observations from a re-analysis of the deposited data

Results flagged for a closer look

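In 6 of 120 sets of libraries of 1 gene in 1 group, 1 library stood apart from the rest by Dixon's criterion, and chance alone gives about 1 in 20. They were LOX2 in phr1 phl1 low Pi MeJA A3 (5163 CPM), LOX4 in Col-0 high Pi untreated A2 (11.2 CPM), in phr1 phl1 high Pi flg22 A1 (21.1 CPM) and in phr1 phl1 low Pi flg22 B3 (16.0 CPM), AOS in phr1 phl1 low Pi flg22 A1 (69.0 CPM) and AOC2 in Col-0 high Pi flg22 A1 (27.6 CPM).

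The change with low Pi differed between the experiments, as change in B minus change in A, in 12 cases by edgeR's test of the difference. In untreated phr1 phl1 it was 2.18 for LOX2, 2.46 for LOX3, 2.24 for LOX4 and 1.96 for AOS, and in untreated Col-0 1.55 for LOX3. In Col-0 with MeJA it was 1.49 for LOX3, 1.67 for LOX4, 1.39 for AOS and 0.81 for OPCL1, and in phr1 phl1 with MeJA 1.42 for LOX3. With flg22 it was 1.35 for AOS in Col-0 and 2.70 for LOX4 in phr1 phl1.

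Library B1 with the label phr1 phl1 high Pi untreated, which no comparison uses, had 9 members above all 5 other libraries of its label. It held 2881 CPM of LOX2, 14.5 of LOX4, 128 of AOS, 144 of AOC1, 261 of AOC2, 34.6 of AOC3, 83.9 of OPR3, 54.9 of OPCL1 and 211 of ACX1. Its LOX3 level, 7.39 CPM, lay within their range. The share of all tested genes in which this library stood above those 5 was not computed.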

How the results depend on the processing

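The count of MeJA-induced members was 10 of 10 in all 4 backgrounds under every alternative run, except 9 in phr1 phl1 at high Pi in the 4 alternatives where LOX3 was lost, and 7 of the 7 other members where AOC1 to AOC3 were summed. The other counts were small and moved with single choices. With the left-out library included, 5 members passed for flg22 in phr1 phl1 at high Pi (5.8% of all genes). For genotype at high Pi untreated, 4 passed (1.17%). The MeJA response between Pi levels in phr1 phl1 gave 1 (0.172%), and that between genotypes at high Pi gave 1 (0.167%). The untreated low Pi response between genotypes gave 1 (0.856%). For flg22 at low Pi, 0 passed in Col-0 (3.8%) and in phr1 phl1 (2.95%). Low Pi gave 0 in untreated Col-0 (15%), in phr1 phl1 with MeJA (2.77%) and in Col-0 with flg22 (14.7%). Genotype at low Pi with MeJA gave 0 (4.77%). Without the count filter, and without the experiment term, 0 passed for flg22 in Col-0 at low Pi, low Pi in phr1 phl1 with MeJA and in Col-0 with flg22, and genotype at low Pi with MeJA. In experiment A alone, flg22 at high Pi gave 1 in Col-0 (8.77% of all genes) and 1 in phr1 phl1 (8.4%). At low Pi flg22 gave 0 in Col-0 (4.83%) and 2 in phr1 phl1 (7.81%). Low Pi over high Pi gave 5 in untreated Col-0 (33.8%), and with MeJA 5 in Col-0 (19.7%) and 3 in phr1 phl1 (9.68%). With flg22 it gave 2 in Col-0 (26%) and 1 in phr1 phl1 (20.3%). Genotype at low Pi gave 1 untreated (5.59%), 0 with MeJA (2.16%) and 1 with flg22 (1.95%). In experiment B alone, 0 passed for flg22 in phr1 phl1 at low Pi (0.729% of all genes). Low Pi over high Pi gave 0 in untreated Col-0 (0.559%), 1 in untreated phr1 phl1 (0.718%) and 0 in phr1 phl1 with MeJA (1.55%). Genotype at low Pi gave 1 untreated (0.596%) and 0 with MeJA (4.62%). With AOC1 to AOC3 summed, low Pi gave 1 in untreated Col-0 (15.5% of all genes) and 0 in Col-0 with flg22 (15%). DESeq2 gave 1 for low Pi in Col-0 with MeJA (8.6%). For low Pi in untreated Col-0 it gave 3, against 2 by edgeR (15.5% of all genes by edgeR). LOX4 also fell in that comparison by edgeR without the libraries numbered B1 (adjusted p = 0.0328) or B3 (0.0303), and LOX3 without B2 (0.0493).

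The fit of each experiment's own low Pi change was chosen after seeing the data. In experiment A it gave 6 in untreated Col-0, 4 in untreated phr1 phl1, 6 in Col-0 and 3 in phr1 phl1 with MeJA. With flg22 it gave 2 in each genotype in experiment A. In experiment B it gave 0 in each of these. The shares of all genes that go with these counts are given above.

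Leaving out replicates gave 0 to 2 members for flg22 in Col-0 and 0 to 1 in phr1 phl1 at low Pi. In Col-0 there were 0 without A1 (2.13% of all genes), A2 (2.17%), B1 (4.04%), B2 (2.11%) or B3 (3.23%). There were 2 without A3 (2.95%), and in phr1 phl1 0 without A2 (1.23%). For low Pi, leaving out replicates gave 0 to 3 in untreated Col-0 and 1 to 3 in untreated phr1 phl1. It gave 0 to 2 with MeJA in each genotype and 0 to 1 in Col-0 with flg22. With MeJA in Col-0 there was 1 without B1 (8.07%) and 2 without B2 (5.99%) or B3 (6.68%). In phr1 phl1 with MeJA 0 passed without A2 (1.18%), A3 (2.03%), B2 (2.43%) or B3 (2.57%). Without A2 (2.97%) or A3 (2.96%) of the untreated mutant at high Pi 0 passed, and 2 without its A1 (2.97%). With flg22 in Col-0, 0 passed without A1 (7.31%), A2 (6.14%), B1 (15.5%), B2 (13.1%) or B3 (16%). For genotype at low Pi, leaving out replicates gave 0 with MeJA (2.93 to 4.96% of all genes). With flg22 it gave 0 to 1, with 1 without B3 (1.05%). The share of all genes moved as well. Without A1, A2 or A3 it was 5.47%, 5.01% and 4.57% for low Pi in untreated Col-0, with 0, 0 and 1 members. In untreated phr1 phl1 it was 4.18%, 3.31% and 4.67%, with 1 member in each.

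Direction turned in 7 cases in which the reported or the alternative value passed the threshold. Changes of sign where neither passed were not counted. With the left-out library included, flg22 in phr1 phl1 at high Pi gave -1.58 for LOX2, -1.62 for AOC1 and -2.76 for AOC2, and low Pi in untreated phr1 phl1 gave -1.097 for AOC1. In experiment A alone AOS gave 0.75 for flg22 in phr1 phl1 at low Pi. In experiment B, LOX2 at low Pi in untreated phr1 phl1 gave 0.13 alone and 0.15 in the fit of both experiments. The causes were not tested.

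Replicate numbers did not pair the libraries (median r 0.00 over 385 same-numbered pairs, and 25 of 71 libraries correlated best with their own number). With a replicate block, 0 members passed for low Pi in Col-0 with flg22 (14.3% of all genes). AOC1 gave 0.57 there (adjusted p = 0.0569), and no other count changed. Depth limits genes with few reads: in untreated Col-0 at high Pi LOX3 had 2 to 47, LOX4 6 to 50 and AOC2 4 to 31 reads per library.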

Other observations

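At low Pi over high Pi in untreated seedlings, 1 of 6 tested substrate supply genes rose and 2 fell in each genotype by edgeR. All changes in this paragraph are of that comparison. Of all tested genes, 12.3% changed in phr1 phl1 and 15.5% in Col-0. The lipase gene PLIP2 rose by 1.73 (SE 0.38, adjusted p = 0.00172) in phr1 phl1 and 2.0 (SE 0.35, adjusted p = 4.89e-05) in Col-0. The desaturase genes FAD8 (-0.86 and -0.75) and FAD7 (-0.39 and -0.41) fell in phr1 phl1 and Col-0. Of 9 other peroxisomal enzymes, 3 rose and 1 fell in phr1 phl1, and 2 rose and 1 fell in Col-0. ACX2 rose by 0.90 and 0.66 and ACX4 by 0.60 and 0.55, and KAT5 changed by -1.28 and -1.09. JMT, which methylates jasmonic acid, fell by 2.18 in phr1 phl1 and 2.89 in Col-0, and HPL1 fell by 1.58 in Col-0. These values pool both experiments.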
